A study of Saccharomyces cerevisiae with 8 samples.

Results

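Divergent promoters are the stretches of DNA between a pair of neighbouring genes that are read away from each other, so that 1 gap holds the start regions of both genes. Here they were the gaps of at least 150 and under 1500 bp between neighbouring protein-coding sequences of Saccharomyces cerevisiae with a gene on the Crick strand to the left and a gene on the Watson strand to the right. Of 1353 such gaps, 1058 were kept, and 295 were dropped because they lay beyond the first inserted sequence on chromosome IV, VII, VIII, XV or XVI, where coordinates differ between strains. The kept divergent promoters served 2116 genes and made up 1058 of 3906 gaps of the same length range. The others were 2015 tandem gaps, between genes on 1 strand, and 833 convergent gaps, between gene ends.

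In a promoter of budding yeast, a stretch that holds few nucleosomes gives transcription factors and RNA polymerase access to the DNA. It is bounded downstream by the first nucleosome of the gene, called +1, which lies close to the start of transcription. Where a pair of genes diverge, both may share a single depleted stretch bounded by a +1 on either side, or each may have its own with nucleosomes in between.

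Nucleosomes were mapped by MNase-seq, which sequences the DNA that nucleosomes shield from micrococcal nuclease. The 8 libraries came from 4 strains, each with 1 library after exposure to 1,10-phenanthroline (100 µg/ml, 30 min, 30 °C), which binds metal ions and is used to inhibit yeast transcription, and 1 from untreated cells. All cells of both groups were synchronised in G1, grown in rich medium (YPD) and derived from the line PPY1, a MATa strain with deletions of HIS3, LEU2, MET15 and URA3 and with BAR1 disrupted by LEU2. Every strain of both groups was also labelled as carrying an insert of 81 bp in 2 genes, with CKB2 and DGK1, PPT1 and SLM3, TRP4 and PAN5, or UBX5 and BSP1 as the pairs. A shift of call coordinates by 77.5 to 83 bp marked each insert in 16 of the 64 combinations of library and insertion site, and 0 of these 16 were in the strain named for the gene. Each sample is therefore called the library labelled strain 1, 2, 3 or 4. Both libraries of a number held their shifts at the same genes, and all divergent promoters kept on these chromosomes lie before the first insert. With n = 4 per treatment and a different strain in each library of a treatment, the p-values reflect variation that includes the strain. Per the labels, each library was sequenced to roughly 10 M read pairs, and the depth of each library is unknown, so no counting interval is given.

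The name rests on the strands of the genes, and calls were counted around the gene starts. Around the genes of divergent promoters, calls were fewest 115 to 185 bp upstream of the start of the coding sequence, with 1.80 to 2.17 calls per 100 genes in a bin of 10 bp in the 4 phenanthroline libraries and 1.84 to 2.03 in the 4 untreated libraries. The highest bins lay 15 or 175 bp into the gene and held 12.4 to 12.6 calls per 100 genes in phenanthroline libraries and 12.0 to 12.7 in untreated libraries. Every library thus had its sparse stretch within the gap and its densest bins at the first or next nucleosome of the gene. Tandem genes had a like profile, so it is not particular to divergent promoters. In the phenanthroline library labelled strain 1, their bins held 2.48 calls per 100 genes at -85 bp and 11.4 at 185 bp. Positions are given relative to the start of the coding sequence, since the start of transcription was not analysed here.

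**Figure D1:**
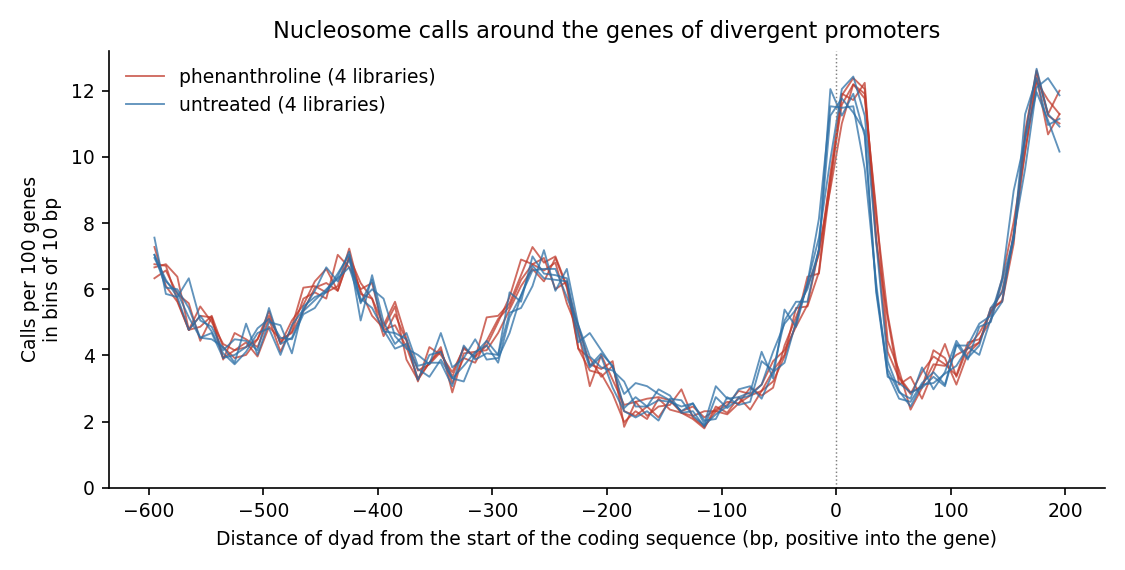
Number of nucleosome calls per 100 genes (y axis, bins of 10 bp) against the distance of the call centre from the start of the coding sequence (x axis, bp, positive into the gene) for the genes of divergent promoters, with 1 line per library. All 8 lines fall to about 2 calls per 100 genes upstream of the start and reach about 12 just inside the gene.

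In 49.0% of promoters with a +1 placed for both genes, 0 nucleosomes lay between, mostly in short gaps. Consensus nucleosomes were built from the pooled call centres (dyads) of all 8 libraries without using the treatment, and a +1 could be placed for both genes in 1025 promoters. Among these, 502 held 0 nucleosomes between the +1 of the Crick gene and the +1 of the Watson gene, 188 held 1, 169 held 2 and 166 held 3 or more, with 10 as the highest number. In gaps under 300 bp, 282 of 289 promoters had 0 nucleosomes between. In gaps of 300 to under 450 bp this was so in 155 of 185, in gaps of 450 to under 700 bp in 62 of 288, and in gaps of 700 bp or more in 3 of 263. The median gap was 484 bp. No minimum width was asked of the interval between the +1, so it need not be a depleted stretch. At PAU8/YAL067W-A it was 148 bp between consensus dyads. In gaps under 300 bp the windows searched for the +1 of each gene overlap, so the share there depends on the rule.

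**Figure D2:**
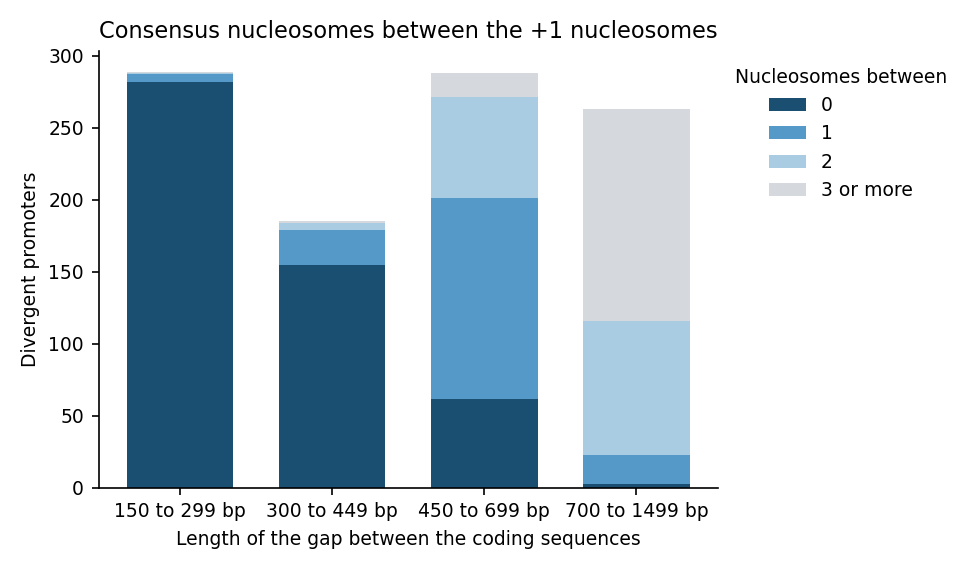
Number of divergent promoters (y axis) in each of 4 classes of gap length (x axis), stacked by the number of consensus nucleosomes between the +1 nucleosomes of both genes. The share with 0 between falls from 282 of 289 promoters in the shortest class to 3 of 263 in the longest.

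The depleted width was taken as the distance between the neighbouring dyads with the widest interval in the region. In the 523 promoters with nucleosomes between the +1, this interval lay next to the +1 of either gene about equally often. With 1 nucleosome between, it lay on the side of the Crick gene in 90 promoters and on the side of the Watson gene in 98. With 2 or more between, it lay next to the Crick +1 in 128, next to the Watson +1 in 125 and next to neither in 82 of 335. Across the 974 promoters with a width in all 8 libraries, the mean width per promoter over libraries was between 137.5 and 722.125 bp, with a median of 279.25 bp. Width and gap length were correlated across these promoters (Pearson's r = 0.419, Spearman's rho = 0.426). This is a description across promoters measured in the same libraries, and a longer gap also leaves more room for a wide interval.

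The widest depleted stretches were found at YPR158C-D/KRE6, IMA4/HXT9 and PHO91/YNR014W. KRE6 acts in the synthesis of cell-wall glucan, HXT9 belongs to the hexose transporters and PHO91 encodes a phosphate transporter of the vacuole. At IMA4/HXT9 (chromosome X, 18537 to 19496), the width was 756, 692, 699 and 703 bp in phenanthroline libraries labelled strain 1 to 4 and 737, 735.5, 699 and 720 bp in the untreated libraries. The groups overlapped, and the difference of -10.4 ± 15.1 bp (SE) did not pass the threshold (limma with Benjamini-Hochberg adjustment over all gaps, adjusted p = 0.618). IMA4 and HXT9 both have near-identical relatives near other chromosome ends, so reads from these copies may not be told apart. Whether reads of copies also affect the width at YPR158C-D/KRE6 was not tested. The narrowest were at PDI1/YCL042W, YMR122C/NCW1 and PAU8/YAL067W-A, where each library had between 107.5 and 166 bp. At these 3 promoters the interval was about as long as the usual distance between neighbouring nucleosomes, so no depleted stretch was seen.

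Under phenanthroline the depleted stretch of divergent promoters was wider by about 8 bp on average, taken between consensus nucleosomes. The mean width over 974 promoters was 304.1, 302.4, 303.1 and 304.7 bp in the phenanthroline libraries labelled strain 1, 2, 3 and 4, against 295.3, 292.9, 300.5 and 295.3 bp in the untreated libraries in the same order. All 4 phenanthroline libraries lay above all 4 untreated ones, and the untreated library labelled strain 3 lay closest to them. The group means were 303.6 ± 1.03 bp with phenanthroline and 296.0 ± 3.21 bp untreated (SD, n = 4 each), a difference of 7.58 bp. Taken as the widest distance between neighbouring calls in each library separately, the difference was 5.13 bp and not beyond the spread (exact p = 0.286). For the first measure, the exact two-sided permutation test gave p = 0.0286, the smallest p that 4 against 4 allows, and p = 0.0571 after Benjamini-Hochberg adjustment over 10 measures, so that none of these measures passes 0.05 after adjustment. Blocked by strain label, an exact test over the signs of the 4 pairs gave p = 0.125, the smallest that 4 pairs allow, so no library measure can pass with the block.

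**Figure D3:**
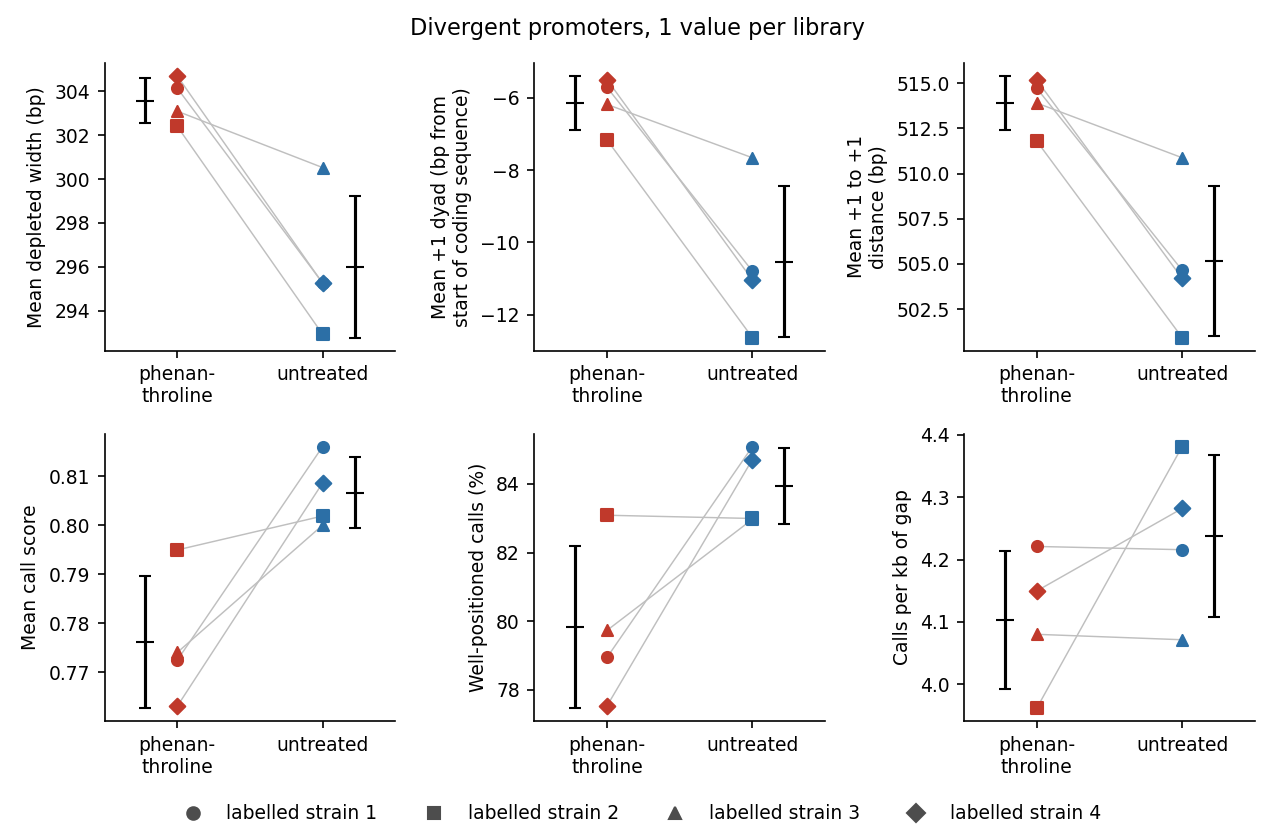
Values of 6 measures over divergent promoters (y axes, units on each), with 1 point per library, phenanthroline at the left and untreated at the right of each panel. Grey lines join the libraries of 1 strain label, black marks show the group mean ± SD (n = 4), and the axes do not start at 0. Depleted width, +1 position, +1 to +1 distance and mean call score do not overlap between the treatments, while the share of well-positioned calls and the calls per kb do.

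Promoter by promoter, the median difference in width was 7.25 bp, the quartiles were 1.75 and 13.0 bp, and the extremes were -47.8 and 60.8 bp. The mean was wider with phenanthroline in 785 promoters and narrower in 189. In limma without a block, 234 of 974 divergent promoters were called wider and 24 narrower (Benjamini-Hochberg adjusted p below 0.05 over 3348 gaps of every orientation). Over all gaps, 24.2% were called wider and 1.58% narrower, so the 24.0% of divergent promoters called wider was close to the background. The 2.46% of divergent promoters called narrower was above the background, a difference that was not tested. With the strain label as a block, 5 divergent promoters were called wider and 2 narrower, and on the distance between calls of each library 44 and 8. The calls also rested on single strain labels, with 2 wider and 3 narrower without strain 1, 16 and 6 without strain 2, 4 and 1 without strain 4, and 291 and 21 without strain 3.

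The difference was larger in promoters with 0 nucleosomes between the +1, where the width is bounded by both +1 nucleosomes. It then holds the downstream shifts of the Crick and the Watson +1, which averaged 4.93 and 4.92 bp. With 1 or more between, at most 1 edge of the interval is a +1, so part of the contrast follows from the definition. With 0 nucleosomes between the +1, the mean width over 484 promoters was 297.9, 295.9, 297.4 and 298.5 bp in phenanthroline libraries, against 286.6, 283.7, 293.4 and 286.5 bp in untreated libraries, a difference of 9.85 bp. With 1 or more between, the mean over 470 promoters was 311.1, 309.7, 309.8 and 311.7 bp with phenanthroline, against 304.7, 302.8, 308.5 and 304.9 bp untreated, a difference of 5.37 bp. Neither pair of groups overlapped (exact p = 0.0286 for each, adjusted over 6 measures p = 0.0343, blocked p = 0.125). The width over all promoters had the same exact p, with 0.0571 after adjustment over 10 measures. The lower adjusted p here comes only from the set of measures adjusted over. The difference between the classes was not tested. Of the first class, 155 of 484 promoters were called wider and 4 narrower, and of the second 77 of 470 and 19. The shares over all gaps were 24.2% and 1.58%. In 434 promoters with nucleosomes between, the interval upstream of each +1 could be measured separately in all libraries. That of the Crick gene averaged 255.3 ± 0.759 bp with phenanthroline and 250.4 ± 2.48 bp untreated, and that of the Watson gene 250.5 ± 0.743 and 245.8 ± 2.35 bp. Both intervals were thus wider with phenanthroline without overlap, by 4.89 and 4.71 bp (exact p = 0.0286 for each).

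By gap length, the difference was largest in the shortest gaps. There 282 of 289 promoters had 0 nucleosomes between the +1, so that the width holds the shifts of both. In gaps under 300 bp the mean width was 263.3 ± 1.12 bp with phenanthroline and 252.8 ± 4.59 bp untreated, 10.5 bp apart. In gaps of 300 to under 450 bp the means differed by 7.80 bp and in gaps of 450 to under 700 bp by 6.84 bp, in both classes without overlap of the groups (exact p = 0.0286, adjusted over 4 classes p = 0.0381). Here too the adjusted p depends on the set adjusted over and is not stronger than that over all promoters. In gaps of 700 bp or more the means were 342.3 ± 1.02 and 337.5 ± 2.71 bp, 4.77 bp apart, and the groups overlapped (exact p = 0.0571). Promoters called wider were 93 of 288, 48 of 181, 62 of 265 and 31 of 240 from the shortest to the longest class. Those called narrower were 0, 4, 9 and 11, beside 24.2% wider and 1.58% narrower over all gaps of every length and orientation. Tandem gaps under 300 bp had mean widths of 265.5 bp with phenanthroline and 253.5 bp untreated, and those of 700 bp or more had 329.6 and 321.4 bp. The smaller difference in long gaps was thus not particular to divergent promoters. At the lower limit of the length rule, 6 gaps up to 20 bp too short had means of 208.5 and 199.9 bp, and 14 gaps within 20 bp above it had 241.4 and 229.5 bp, with phenanthroline and untreated. At the upper limit, 24 gaps within 200 bp below it had means of 401.8 and 403.0 bp, and 19 gaps up to 200 bp too long had 389.3 and 382.1 bp.

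Gaps that also hold a tRNA gene, which is read by RNA polymerase III, are a small subset of 37. In the 34 with a width in all libraries the mean was 374.9 ± 2.23 bp with phenanthroline and 373.1 ± 2.28 bp untreated, and the groups overlapped (exact p = 0.286). Of these, 4 were called wider and 4 narrower, beside 24.2% and 1.58% over all gaps. Some other measures of these gaps did not overlap between the treatments. The +1 lay 3.55 bp farther downstream, the distance between the +1 was 6.24 bp longer and the mean call score differed by -0.0541 (exact p = 0.0286 for each, not adjusted). The calls per kb of these gaps did overlap, with 4.25 ± 0.152 with phenanthroline and 4.12 ± 0.117 untreated (exact p = 0.229). In the 929 promoters without any noncoding gene, the means were 300.5 ± 1.07 and 292.7 ± 3.30 bp. The tRNA subset consists of long gaps, and the difference between the subsets was not tested.

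**Figure D4:**
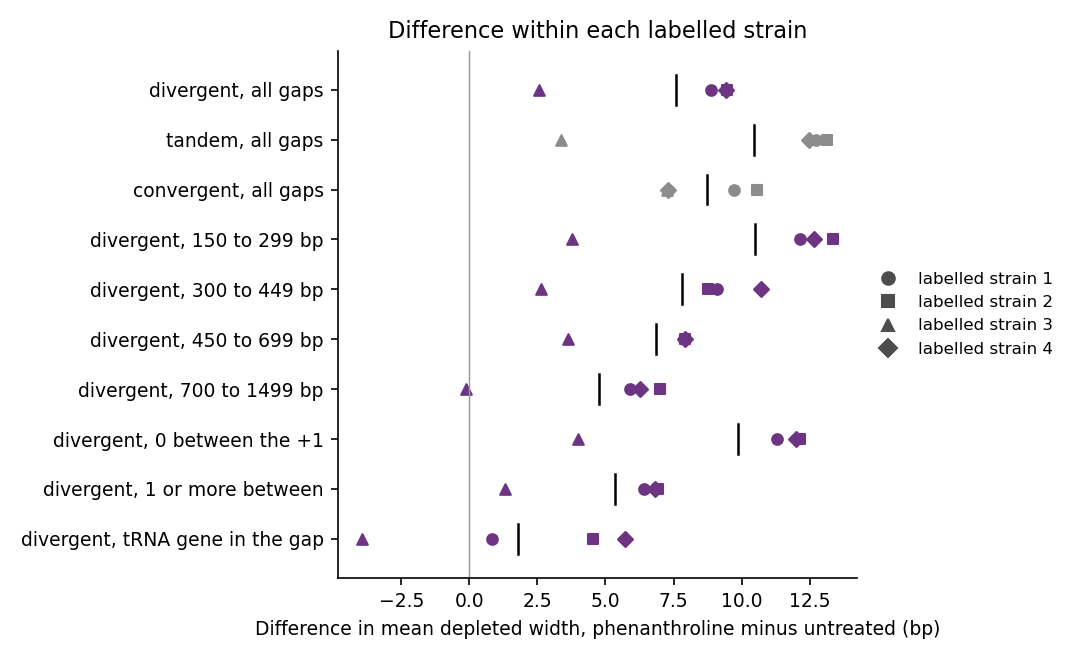
Difference in mean depleted width, phenanthroline minus untreated (x axis, bp), for the orientations and for classes of divergent promoters (rows), with 1 point per strain label and a black bar at the difference of the group means. The point of strain label 3 lies lowest in every row, and the bar shrinks from 10.5 bp in the shortest divergent gaps to 4.77 bp in the longest.

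Tandem and convergent gaps were wider with phenanthroline as well, so this was not particular to divergent promoters. Tandem gaps had a mean width of 288.6 ± 0.944 bp with phenanthroline and 278.1 ± 4.54 bp untreated, and convergent gaps had 218.7 ± 1.36 and 210.0 ± 1.42 bp. Over all lengths, divergent promoters were wider than tandem gaps in every library, by 14.7, 14.9, 15.0 and 15.4 bp with phenanthroline and by 18.6, 18.6, 15.8 and 18.5 bp untreated. This excess was thus smaller with phenanthroline by 2.85 bp, without overlap (exact p = 0.0286, adjusted over 10 measures p = 0.0571, blocked p = 0.125). With assignment of calls within 30 bp this difference between the treatments was -1.62 bp, and on the distance between calls of each library -7.08 bp (exact p = 0.0286 for each). Since divergent gaps are longer, divergent minus tandem width was also taken within each class of gap length, a step added after seeing the data. In gaps under 300 bp divergent gaps were narrower than tandem ones in all 8 libraries, with means of -2.15 ± 0.654 bp with phenanthroline and -0.702 ± 0.246 bp untreated, without overlap (exact p = 0.0286, adjusted over 4 classes p = 0.0571). In the longer classes divergent gaps were wider, by 9.20, 22.4 and 12.7 bp with phenanthroline and by 12.1, 25.2 and 16.1 bp untreated. The groups did not overlap in gaps of 700 bp or more (exact p = 0.0286, adjusted p = 0.0571) and overlapped in the 2 classes between (exact p = 0.0571 and 0.143).

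Both flanking +1 nucleosomes lay farther into their genes with phenanthroline. Over the genes of divergent promoters, the mean +1 dyad was at -5.71, -7.17, -6.18 and -5.50 bp from the start of the coding sequence in phenanthroline libraries, against -10.8, -12.6, -7.66 and -11.0 bp in untreated libraries. The groups did not overlap, with the untreated library labelled strain 3 again the nearest, and differed by 4.39 bp (exact p = 0.0286, adjusted p = 0.0571, blocked p = 0.125). The difference was 4.36 bp for Crick genes and 4.41 bp for Watson genes. The distance between the +1 of both genes was 513.9 ± 1.5 bp with phenanthroline and 505.2 ± 4.16 bp untreated, 8.73 bp apart, again without overlap (exact p = 0.0286). This distance is set by the same dyads as the +1 positions, so it is not a separate result. In promoters with 0 nucleosomes between, it is also the same quantity as the depleted width. The +1 of tandem genes differed by 4.48 bp with overlapping groups. The test of the difference between divergent and tandem genes in +1 position, -0.0903 bp, gave exact p = 0.686.

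Of 2015 genes of divergent promoters with a +1 in all 8 libraries, limma without a block called 457 downstream and 41 upstream in phenanthroline libraries (Benjamini-Hochberg adjusted p below 0.05 over 3925 genes). Over all genes tested, 20.5% were called downstream and 2.11% upstream, so divergent genes, at 22.7% and 2.03%, were close to the background. With the strain label as a block, 78 were called downstream and 9 upstream. Leaving out strain label 1, 2, 3 or 4 gave 6 and 2, 53 and 5, 550 and 40, and 11 and 2. In 635 of 970 promoters the mean position of both +1 lay downstream, in 48 both lay upstream, and in 287 they lay in opposite directions. Both genes were called downstream in 55 promoters and 1 of them in 332. In promoters with 0 nucleosomes between the +1, both were called in 41 of 484. With nucleosomes between it was 14 of 486, a difference that was not tested.

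Nucleosomes between the +1 were called slightly less often and scored lower. The 1181 consensus nucleosomes in this position were called in 96.95%, 95.60%, 96.19% and 96.11% of cases in phenanthroline libraries, against 97.12%, 97.12%, 97.04% and 97.63% in untreated libraries. These values did not overlap (exact p = 0.0286, adjusted over 6 measures p = 0.0343, blocked p = 0.125). Over all chromosomes, phenanthroline libraries held more calls, 74442 to 75086 against 72649 to 73456 in untreated libraries. The share called was not taken for nucleosomes of other gaps. The call score, from 0 to 1, falls as fragments scatter around a position and rises with coverage within a library. Nucleosomes between the +1 that were called in all 8 libraries had a mean score of 0.742 ± 0.0119 with phenanthroline and 0.786 ± 0.0117 untreated, and +1 nucleosomes had 0.834 ± 0.00828 and 0.861 ± 0.00849 (exact p = 0.0286 for each).

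Over all calls of the divergent promoters, meaning the gap plus 200 bp into either gene, the mean score was 0.772, 0.795, 0.774 and 0.763 in phenanthroline libraries, against 0.816, 0.802, 0.800 and 0.809 in untreated libraries. The groups did not overlap (difference -0.0305, exact p = 0.0286, adjusted p = 0.0571, blocked p = 0.125). After each library was centred on the median score of its calls the difference was -0.00665 and the groups overlapped (exact p = 0.486), and on the width score alone it was -0.0138 (exact p = 0.229). The share of well-positioned calls was 78.9%, 83.1%, 79.7% and 77.5% with phenanthroline, against 85.1%, 83.0%, 83.0% and 84.7% untreated. The libraries labelled strain 2 were alike in this share and the groups overlapped (exact p = 0.0857). The gaps held 4.22, 3.96, 4.08 and 4.15 calls per kb with phenanthroline, against 4.22, 4.38, 4.07 and 4.28 untreated, also with overlap (exact p = 0.229). Tandem gaps had lower scores, 0.717 ± 0.0131 with phenanthroline and 0.753 ± 0.00750 untreated, and the divergent excess was 0.0587 and 0.0536. The difference of 0.00516 between these did not pass the threshold (exact p = 0.0571), but with calls in the gap alone it was 0.0106 and on the height score alone 0.0130, both without overlap (exact p = 0.0286).

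Per promoter, limma called 8 mean scores higher and 118 lower with phenanthroline among 1047 divergent promoters with at least 2 calls in every library. Over all 3865 gaps, 1.55% were called higher and 13.9% lower. After centring on the library median, the calls were 21 higher and 34 lower. Centring also removes any fall shared by the calls of a library, and what lowered the scores was not tested. Without centring, the calls with the strain label as a block were 4 higher and 93 lower. Without strain label 1 they were 1 and 1, and without strain label 4 they were 1 and 13.

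Losses of single nucleosomes were few. A consensus nucleosome was counted as gained or lost when every library of 1 treatment called it and no library of the other did. Among 5905 consensus nucleosomes of divergent promoters, 0 were gained and 9 were lost with phenanthroline, as a count with no test. Over all 60641 consensus nucleosomes of the kept regions, 0.115% were gained and 0.137% lost. Without strain label 1, 2, 3 or 4 the divergent counts of gained and lost were 1 and 16, 13 and 10, 9 and 23, and 3 and 14. All 9 had modest scores: their untreated means were 0.269 to 0.639, against a mean of 0.806 over all consensus nucleosomes of divergent promoters.

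Of the 9, 7 lay in the gap and 2 in a gene. The one with the highest score lay at 254097 on chromosome IX between YIL055C and YIL054W, with scores of 0.622, 0.753, 0.443 and 0.737 in the untreated libraries and no call in the 4 phenanthroline libraries. At HAS1/TDA1, where HAS1 encodes an RNA helicase of ribosome assembly, the lost nucleosome (chromosome XIII, 852082) had untreated scores of 0.541, 0.783, 0.301 and 0.476. At POR2/SDP1, which encode a porin of the mitochondrial outer membrane and a phosphatase of a MAP kinase, the nucleosome at 150415 on chromosome IX had untreated scores of 0.455, 0.507, 0.281 and 0.377. It lay 144 bp upstream of SDP1. The gap there held 2 calls in every phenanthroline library, against 3, 5, 3 and 3 in untreated libraries. Lost nucleosomes were also seen at POP1/ADE12, PRM5/HIS5, DPI8/MRS3, ARN1/EFM1, OM14/COQ21 and YER188C-A/YER189W. PRM5/HIS5, DPI8/MRS3 and ARN1/EFM1 were named after their values were seen, and YER188C-A/YER189W lies in a repeated region near a chromosome end, so that its reads may stem from copies.

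Among divergent promoters, that of BUD14 and ADE1 had the smallest adjusted p for width. BUD14 encodes a regulator of a protein phosphatase, and ADE1 encodes an enzyme of purine synthesis. Their gap (chromosome I, 168872 to 169374, 503 bp) held 0 nucleosomes between the +1 and 2 calls in every library. The depleted width was 360, 353, 354 and 358 bp in phenanthroline libraries, against 305, 313, 298 and 305 bp in untreated libraries. The 51.0 ± 3.58 bp widening passed the threshold without a block (SE, limma, adjusted p = 7.75e-04) and with it (adjusted p = 0.0263). All of it lay on the side of ADE1: the +1 of ADE1 was at -40, -47, -46 and -43 bp with phenanthroline, against -95, -91, -102 and -98 bp untreated. The shift of 52.5 ± 2.64 bp passed the threshold (limma, adjusted p = 1.36e-04, blocked 0.0107). The +1 of BUD14 was at -104, -104, -104 and -103 bp with phenanthroline, against -104, -100, -104 and -101 bp untreated, and its difference of -1.5 ± 1.28 bp did not pass (adjusted p = 0.394).

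Other large widenings were at PGM2/YMR105W-A, PHO91/YNR014W, EIS1/HOF1, YPR159C-A/GPH1 and GID11/STM1. PGM2 encodes phosphoglucomutase and GPH1 glycogen phosphorylase, both enzymes of carbohydrate storage. At PGM2 (chromosome XIII, 477607 to 478063) the width was 344, 393, 384 and 354 bp with phenanthroline, against 323, 290, 324 and 295 bp untreated, a difference of 60.8 ± 13.1 bp (limma, adjusted p = 0.0224, blocked 0.0597). The groups did not overlap. At PHO91 (chromosome XIV, 651713 to 652464) it was 722, 704, 697 and 696 bp, against 651, 627, 670 and 646 bp, and the +1 of PHO91 was at 10, 6, 10 and 18 bp with phenanthroline, against -28, -30, -9 and -22 bp untreated. The widenings at EIS1/HOF1 (EIS1 is an eisosome component and HOF1 acts in cytokinesis), YPR159C-A/GPH1 and GID11/STM1 were 50.4, 49.5 and 45.2 bp, all without overlap, with blocked adjusted p of 0.0544, 0.0544 and 0.0547.

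In the distance between neighbouring calls taken in each library separately, 2 of these promoters lost the direction: the difference was -59.8 bp at PHO91/YNR014W and -8.88 bp at YPR159C-A/GPH1, neither past the threshold. At YPR159C-A/GPH1 the interval lies next to neither +1, in a gap that also holds a tRNA gene.

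The largest narrowings were at YPR158C-D/KRE6, YGR045C/TAM41, VPH2/SBA1, SNP1/YIL060W, IZH4/PKH2 and GRX1/LSB5. VPH2 acts in the assembly of the vacuolar proton pump and SBA1 encodes a co-chaperone of Hsp90. At VPH2/SBA1 (chromosome XI, 219218 to 220323) the width was 252, 275, 273.5 and 269 bp with phenanthroline, against 308, 308, 305 and 310 bp untreated. The difference of -40.4 ± 5.07 bp passed the threshold without and with the block (limma, adjusted p = 0.00736 and 0.0418). The call was lost on the distance between calls of each library, with -19.6 bp (adjusted p = 0.0591), and without strain label 4, with -40.2 bp (adjusted p = 0.0644). The interval lay between other nucleosomes of a gap with 4 nucleosomes between the +1 and a tRNA gene, and not next to either +1. At YGR045C/TAM41, where TAM41 encodes a mitochondrial enzyme of phospholipid synthesis, it was 275, 239, 263 and 255 bp, against 300, 284, 310 and 308 bp (-42.5 ± 8.61 bp, adjusted p = 0.0206, blocked 0.0418). At YPR158C-D/KRE6 it was 703, 700, 695 and 695 bp, against 777, 739, 728 and 740 bp. At these 6 promoters the groups did not overlap. The interval lay next to neither +1 at YPR158C-D/KRE6, SNP1/YIL060W and IZH4/PKH2 as well, and next to 1 of them at YGR045C/TAM41 and GRX1/LSB5. At IZH4/PKH2 the direction turned when only calls of score 0.4 or more were used, with 37.0 bp in place of -30.8 bp, and at GRX1/LSB5 it turned to 3.63 bp on the distance between calls of each library.

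**Figure D5:**
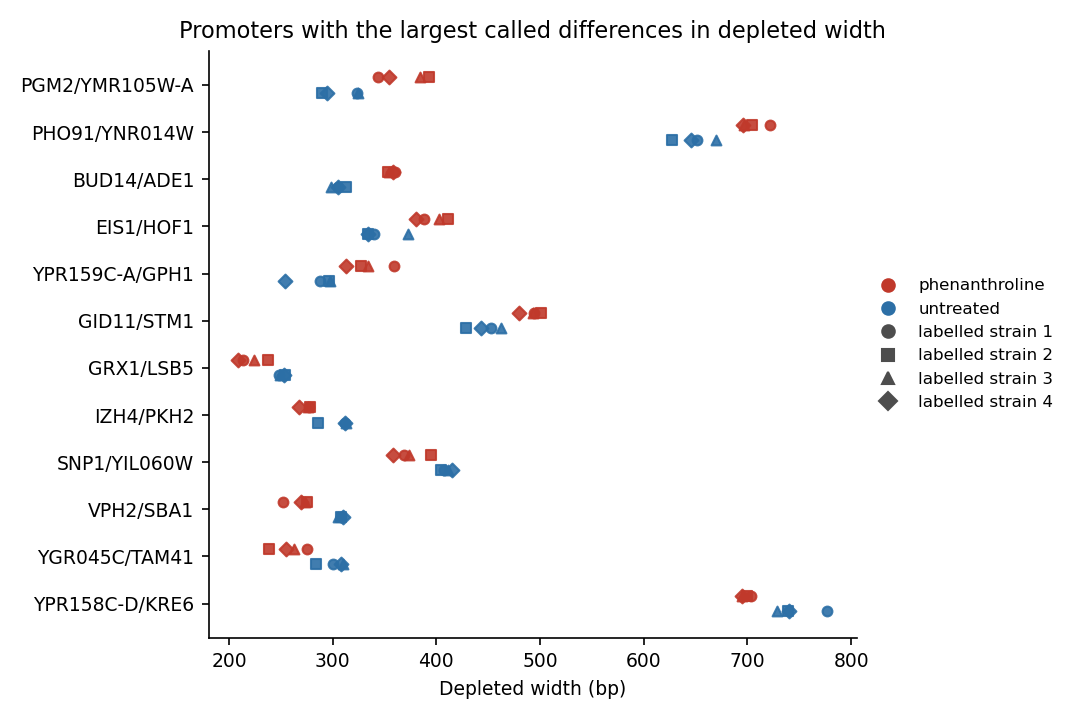
Depleted width (x axis, bp) of the 6 divergent promoters with the largest called widening and the 6 with the largest called narrowing (rows), with 1 point per library, phenanthroline above untreated and the marker shape giving the strain label. BUD14/ADE1 has the tightest pair of groups among the widened promoters, at 353 to 360 bp against 298 to 313 bp.

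Of the 258 width calls, 7 also passed with the strain label as a block. They were BUD14/ADE1, YGR045C/TAM41, VPH2/SBA1, YIH1/TAH1, YDL177C/GID12, CTK2/CYR1 and RCN1/APE2, the last 3 named after their values were seen. YIH1 encodes an inhibitor of the kinase Gcn2 and TAH1 a co-chaperone of Hsp90. At YIH1/TAH1 (chromosome III, 224231 to 224398) the gap is only 168 bp, and the width was 278, 272, 276 and 280 bp with phenanthroline, against 238.5, 227.5, 239.5 and 239.5 bp untreated, without overlap. The +1 of TAH1 was at 74, 70, 74 and 74 bp, against 44.5, 33.5, 41.5 and 43.5 bp, and that of YIH1 was shifted by 8 ± 1.48 bp (limma, adjusted p = 0.0191). CTK2 encodes a cyclin of a kinase that acts on RNA polymerase II and CYR1 adenylate cyclase, and the width at CTK2/CYR1 was 304, 303, 302 and 302 bp, against 277, 271, 279 and 278 bp.

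The largest other shifts of a +1 downstream were at INA1, YMR316C-A and SNA3, by 42.2 ± 9.34, 41.8 ± 5.68 and 40.4 ± 7.25 bp (limma, adjusted p = 0.0245, 0.0101 and 0.0188). The +1 of SNA3 was at 24, 17.5, 23 and 53 bp with phenanthroline, against -8, -11, -10 and -15 bp untreated, while that of DAS1 on the other side of the gap was at 3, 2, 0 and -4 bp, against 1, 0, 1 and 1 bp. The largest shifts upstream were at KRE6, VBA3, ADI1 and ADE12. The +1 of VBA3, a vacuolar amino-acid transporter, was at 36.5, 36, 36.5 and 39 bp, against 71, 70, 70 and 71 bp, a shift of -33.5 ± 1.09 bp (limma, adjusted p = 1.00e-05, blocked 0.00758). GEX1 and VBA3 have near-identical copies at another chromosome end, so this value may mix copies. ADI1, an enzyme of methionine salvage, shifted by -30.8 ± 6.46 bp, and ADE12, an enzyme of AMP synthesis, by -25.8 ± 7.24 bp.

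Values are given next for well-known divergent pairs, and the pairs were not tested against each other. GAL10 and GAL1, the pair for galactose use, share a gap of 668 bp with 1 nucleosome between the +1 (chromosome II, 278353 to 279020). Its width was 336, 329, 334 and 344 bp with phenanthroline, against 329, 316, 330 and 337 bp untreated, overlapping groups (difference 7.75 bp, limma, adjusted p = 0.271). On the distance between calls of each library the difference was -73.2 bp, also not past the threshold (adjusted p = 0.296). Its mean call score was 0.671, 0.718, 0.677 and 0.792, against 0.901, 0.852, 0.873 and 0.901, without overlap (difference -0.168 ± 0.0279, adjusted p = 0.00932, blocked 0.0229). The pair DAL1 and DAL4, for use of allantoin, widened by 10.0 ± 2.96 bp (adjusted p = 0.0440, blocked 0.101).

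The histone pairs were measured at 3 promoters. HTA2 and HTB2, which encode histones H2A and H2B, share 1 depleted stretch. Its width was 444, 431, 425 and 444 bp with phenanthroline, against 416, 417, 427 and 411 bp untreated. The groups overlapped through the untreated library labelled strain 3, and the difference of 18.2 ± 5.45 bp passed the threshold (limma, adjusted p = 0.0452) but not with the block (0.112), and it was -17.8 bp on the distance between calls of each library. HHF1/HHT1 and HHT2/HHF2, the pairs for H4 and H3, had 14.5 ± 13.2 and 20.4 ± 14.0 bp, neither past the threshold (adjusted p = 0.429 and 0.293).

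The mating-type loci hold 3 divergent pairs. The alpha pairs at MAT and HML are copies of each other in the reference genome, and 0 calls were listed in either gap in any library. Whether reads of these copies were kept was not tested. At HMRA2/HMRA1 (chromosome III, 293539 to 293834), the mean call score was 0.595, 0.656, 0.692 and 0.689 with phenanthroline, against 0.859, 0.880, 0.826 and 0.830 untreated, without overlap (difference -0.191 ± 0.0249, limma, adjusted p = 0.00548, blocked 0.0218). MATa cells hold the same sequence at MAT, so silent and active copies cannot be told apart here. Other promoters with a strongly lower score were ICP55/YER078W-A (-0.200), OPT1/PEX2 (-0.200) and COR1/YBL044W (-0.193), and 4 of the 8 called higher in score were GPI18/RCR1 (0.183), HTC1/RGL1 (0.170), YIH1/TAH1 (0.146) and POR2/SDP1 (0.110).

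Gene lists were described by counts of their divergent promoters, without a test of the list. Over all 974 promoters tested for width, the median difference was 7.25 bp, with 24.0% called wider and 2.46% narrower, and over all gaps 24.2% were called wider and 1.58% narrower. Of 31 promoters of mitochondrial ribosome genes, which are mostly short gaps with a median of 312 bp, 13 were called wider and 0 narrower, with a median of 9.75 bp. At LSM3/MRPL4, with a gap of 312 bp and a mitochondrial ribosomal protein on one side, the width was 298, 298, 298 and 299 bp with phenanthroline, against 280, 269, 280 and 276 bp untreated (22 ± 2.96 bp, limma, adjusted p = 0.00757, blocked 0.0521). Of 32 promoters of cytoplasmic ribosomal protein genes, 9 were called wider and 0 narrower, with MLP2/RPL40A (577, 574, 572 and 564 bp, against 556, 550, 560 and 546 bp) and MOT1/RPS9A (424, 428, 406 and 414.5 bp, against 399, 398, 396 and 390 bp) among them. At MLP2/RPL40A the direction turned to -85.0 bp on the distance between calls of each library. Of 42 promoters of ribosome biogenesis genes, chosen mostly by name prefix, 12 were called wider and 0 narrower.

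Of 32 promoters of G1/S and DNA replication genes, 10 were called wider and 0 narrower, with a median of 6.5 bp. At ELO1/CDC6, where CDC6 loads the replicative helicase, the width was 311, 316, 306 and 316 bp with phenanthroline, against 285, 276, 295 and 289 bp untreated (26 ± 4.49 bp, limma, adjusted p = 0.0146, blocked 0.0578), but -17.0 bp on the distance between calls of each library. Of 11 promoters of pheromone response genes, 2 were called wider and 0 narrower, PRM2/CST6 (17.0 bp) and PEX34/KAR4 (20.8 bp). Of 16 proteasome promoters, 3 were called wider and 0 narrower. SCL1/MPO1, with a core subunit of the proteasome, had 288, 290, 288 and 288 bp, against 275, 272, 274 and 276 bp. Of 25 promoters of amino-acid biosynthesis genes 5 were called wider and 0 narrower, among them MAS2/THR1 (23.0 bp) and LYS5/PEX14 (21.5 bp). Of 5 promoters of glycolysis and fermentation genes 0 were called in either direction, and of 2 with galactose or maltose genes 0 were called.

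In 2 lists, more promoters were called narrower than wider. Of 8 promoters of heat-shock chaperone genes tested for width, 0 were called wider and 4 narrower, with a median of -11.25 bp, beside 24.2% called wider and 1.58% narrower over all gaps. These 4, named after their values were seen, were VPH2/SBA1, HSP10/MCO10, SSC1/TAH11 and TAD2/KAR2, with co-chaperone, mitochondrial chaperonin, mitochondrial Hsp70 and endoplasmic-reticulum Hsp70 genes. At SSC1/TAH11 the width was 319, 324, 329 and 326 bp with phenanthroline, against 343, 334, 338 and 336 bp untreated (-13.2 ± 3.13 bp, limma, adjusted p = 0.0272, blocked 0.0781), and the +1 of SSC1 was shifted by -10.2 ± 2.60 bp, upstream. At TAD2/KAR2 it was 318, 320, 318 and 317 bp, against 327, 329, 323 and 331 bp. At HSP10/MCO10 it was 326, 308, 303 and 301 bp, against 332, 332, 325 and 335 bp, and the groups overlapped there but not at the other promoters. Only VPH2/SBA1 passed with the block. Of 11 promoters of respiratory chain and ATP synthase genes, 0 were called wider and 3 narrower, beside the same shares over all gaps. Their median was 1.75 bp. They were COR1/YBL044W, ATP18/TDA9 and YDL085C-A/NDE2, the last named after its values were seen. ATP18/TDA9 had 273, 270, 269 and 283 bp, against 291, 293, 288 and 295 bp, and COR1/YBL044W turned to 93.8 bp on the distance between calls of each library. At COR1/YBL044W the interval lay next to neither +1 and was only 167 bp between consensus dyads, so it is hardly a depleted stretch.

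The general stress list held few promoters with a width in all libraries. Of 6 tested, 4 were called wider and 1 narrower, with a median of 30.25 bp, beside 24.2% wider and 1.58% narrower over all gaps. The wider ones were PGM2/YMR105W-A, TPS3/YMR262W, GRE1/FMP40 and YPR159C-A/GPH1, and the narrower was GRX1/LSB5, a glutaredoxin gene. TPS3/YMR262W and GRE1/FMP40 were named after their values were seen. At TPS3, which encodes a subunit of the trehalose synthase complex, the width was 256, 265, 281 and 294 bp with phenanthroline, against 228, 210, 249 and 233 bp untreated (44.0 ± 10.4 bp, limma, adjusted p = 0.0272, blocked 0.0544), without overlap. Over the 9 promoters of this list, 3 mean scores were called lower and 0 higher, beside 13.9% lower and 1.55% higher over all gaps. The median was -0.106, beside a median of -0.0217 over all divergent promoters tested for score. The list was not tested.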

How the data were processed

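MNase-seq fragments of 4 labelled strains, each with and without phenanthroline, were the source of the 8 files. The authors deposited 1 list of nucleosome calls per library with a score from 0 to 1, the mean of a width and a height score. The calls have the columns of nucleR output and lie on sacCer3, per the submitters' processing notes. The sources used here do not name the aligner, the filters or the nucleR version. Calls spanned 147 bp in 91.4% to 92.9% of cases, and the middle was taken as the dyad. Class W (well positioned) was checked to mean a width score from 0.6 and a height score from 0.4 up, with 0 calls off the rule.

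Coding sequences came from the RefSeq table of assembly R64, and the strand from the systematic name. Consensus nucleosomes were peaks of the pooled dyads after Gaussian smoothing (SD 20 bp), no closer than 80 bp. A call was assigned to a peak up to 60 bp away, and peaks with calls from 4 or more libraries were kept. The depleted interval was the widest between neighbours reaching into the gap. The +1 was the downstream member of the widest interval whose member lay no more than 150 bp before or 200 bp after the coding start.

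Library measures were compared by exact two-sided permutation over 70 splits of 4 against 4. Per-promoter values were fitted with limma 3.58.1 (R 4.3.3) without a block over all gaps, with Benjamini-Hochberg adjustment at 0.05. Errors of fitted differences are SE. Python 3.11.15, numpy 2.4.6, pandas 2.3.3, scipy 1.17.1 and matplotlib 3.10.9 did the rest. Simulated calls for the width comparison covered 3324 fitted gaps. Edges moved by 10, 20 and 40 bp were called in 19.4%, 61.2% and 85.9% of the 67, 67 and 64 moved gaps. Of 3126 gaps left unmoved, 0.16% were called. For the score comparison (3861 gaps), falls of 0.1 and 0.2 were called in 80% and 95%. Of 3661 gaps without a fall, 0.956% were called. Whether these rates hold for the real libraries, where most promoters differed in the same direction, was not tested.

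Libraries of 1 number come from the same labelled strain and were paired on that ground. Their deviations from the group means were only weakly correlated, from 0.00989 to 0.0912 for width, -0.0137 to 0.0732 for score and 0.0246 to 0.147 for +1 position. The members, gene lists and tests were chosen with earlier results of these data known. The promoters named were set by a rule: known pairs, the 6 largest rises and 6 largest falls in width that passed and had 1 sign in all 4 strain labels, the same 4 and 4 for score and +1, the 3 widest and 3 narrowest, up to 6 with a lost nucleosome, and 2 per list with the smallest p. Others are said to be named after their values were seen. Alternatives were calls of score 0.4 or more, assignment within 30 bp, 5 chromosomes left out, the gap alone, single score parts, the widest distance between calls of each library, each strain label left out and the block.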

Additional observations from a re-analysis of the deposited data

Results flagged for a closer look

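In 145 groups of 4 libraries, 8 held a library far from the other 3, close to the 1 in 20 that chance flags. The excess of divergent over tandem width in the untreated library labelled strain 3 was 15.8 bp, below the 18.5 to 18.6 bp of the other untreated libraries. Of nucleosomes between the +1, 97.6% were called in the untreated library labelled strain 4. Single promoters with 1 library apart in depleted width were EIS1/HOF1 (372.5 bp in untreated strain 3), IZH4/PKH2 (286 bp in untreated strain 2), YIH1/TAH1 (227.5 bp in untreated strain 2), YIL055C/YIL054W (248 bp in untreated strain 3), LSM3/MRPL4 (299 bp in phenanthroline strain 4, 1 bp from the rest) and SCL1/MPO1 (290 bp in phenanthroline strain 2, 2 bp from the rest). The widening of divergent minus that of tandem gaps was -2.85 bp and was tested directly (exact p = 0.0286, adjusted over 10 measures p = 0.0571, blocked p = 0.125), so it did not pass after adjustment.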

How the results depend on the processing

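With the strain label as a block, values stayed as they were and the exact p became 0.125 for width (7.58 bp), +1 position (4.39 bp), +1 to +1 distance (8.73 bp), score (-0.0305) and the change in divergent minus tandem width (-2.85 bp). Leaving out 1 strain label gave ranges of 6.96 to 9.26 bp for width, 4.00 to 5.36 bp for +1 position, 7.99 to 10.6 bp for +1 to +1 distance, -0.0384 to -0.0255 for score and -3.53 to -2.51 bp for the change in divergent minus tandem width, where an exact test of 3 against 3 cannot go below p = 0.1. The width difference was 5.13 bp (exact p = 0.286) on the widest distance between calls of each library. The score difference was -0.00665 after centring on the library median and -0.0138 on the width score alone. Calls per kb differed by -0.292 (exact p = 0.0286) among calls of score 0.4 or more. The next values are changes between the treatments, phenanthroline minus untreated, in divergent minus tandem gaps. In width the change was -2.85 bp, with -1.62 bp for assignment within 30 bp and -7.08 bp on the distance between calls of each library, and it was not past the threshold in gaps of 300 to under 450 bp (-2.92 bp) and 450 to under 700 bp (-2.79 bp). In calls per kb it was 0.0300, with 0.0784 for calls of score 0.4 or more (exact p = 0.0286) and the opposite sign in gaps under 300 (-0.237) and of 300 to under 450 bp (-0.0879). In +1 position it was -0.0903 bp, with the opposite sign without 5 chromosomes (0.331 bp), with assignment within 30 bp (0.172 bp) and in gaps under 300 (0.384 bp, exact p = 0.0286) and of 450 to under 700 bp (0.496 bp). In score it was 0.00516 (exact p = 0.0571), with 0.0106 in the gap alone, 0.0162 and 0.00814 in gaps under 300 and of 300 to under 450 bp and 0.0130 on the height score (exact p = 0.0286 for each), and -0.00267 on the width score. The causes of these changes were not tested.

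Counts of calls moved more. Promoters called for width numbered 7 with the block, 52 on the distance between calls of each library, 166 without 5 chromosomes (fewer gaps tested) and 5 to 312 without 1 strain label, against 258. Genes called for +1 position numbered 87 with the block and 8 to 590 without 1 strain label, against 498. Promoters called for score numbered 55 after centring, 202 on the height score, 35 on the width score and 2 to 97 without 1 strain label, against 126. Gained and lost nucleosomes numbered 18 among calls of score 0.4 or more and 17 to 32 without 1 strain label, 23 of them without strain label 2. On the distance between calls of each library 14 named promoters lost the call in the same direction, and of the called ones the width difference turned sign at COR1/YBL044W (93.8 bp), ELO1/CDC6 (-17 bp), GRX1/LSB5 (3.63 bp), HTA2/HTB2 (-17.8 bp), MLP2/RPL40A (-85 bp), PHO91/YNR014W (-59.8 bp) and YPR159C-A/GPH1 (-8.88 bp). Among those not called, it turned at GAL10/GAL1 (-73.2 bp), ICP55/YER078W-A (-50.9 bp), YBR144C/ADH5 (-34.2 bp), YMR122C/NCW1 (-15.5 bp), POP1/ADE12 (-1.5 bp), OM14/COQ21 (16.5 bp) and PDI1/YCL042W (19.0 bp). It also turned with calls of score 0.4 or more at IZH4/PKH2 (37 bp), YMR008C-A/ADI1 (74.8 bp) and PAU8/YAL067W-A (7.75 bp). Of 54 named promoters with a width test, 23 stayed on their side of the threshold with the block and 31 lost the call. The unknown depth of the libraries limits what a lost or gained call shows.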
